A study of Mus musculus with 2 samples.

Results

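The regions described here are the anti-FLAG peaks that sat just upstream of a transcription start site (TSS) in mouse hippocampus. They are the peaks of the authors' annotation table whose class was promoter within 1 kb and whose summit region, the stretch at the peak's maximum signal, lay 1 to 1000 bp upstream of the assigned TSS. Of 99782 annotated peaks, 6200 met this rule, or 6.21% (Wilson 95% interval 6.07 to 6.37%). They are called upstream promoter peaks below. The matching group on the other side of the TSS, 1 to 1000 bp downstream, held 6061 peaks. A further 3021 peaks had their summit region on the TSS, and 4295 lay in the upstream shoulder, beyond 1000 bp and up to 3000 bp.

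The peaks come from CUT&Tag, an assay in which an antibody bound to chromatin brings a transposase that cuts and tags the DNA beside it. The tissue was hippocampus of C57BL/6J mice with the genotype CamK-PARIS. The anti-FLAG antibody was used for 1 library and IgG, the negative control, for 1 library of the same genotype, so a value has no replicate error and nothing was tested between conditions. The labels give neither the age of the mice, nor the number pooled, nor the promoter and cells that express PARIS in this genotype, and no library from mice of another genotype was analysed here. Intervals below are at 95% and cover counting error over peaks of this library only.

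A promoter is the DNA around a gene's start at which RNA polymerase II and the general transcription factors assemble. The stretch just upstream of the start is where many sequence-specific factors bind, and in mammals it often lies in a CpG island, a stretch rich in G and C that has kept its CG dinucleotides. PARIS, the product of Zfp746, is a zinc-finger protein that represses transcription. It was described as a repressor of Ppargc1a, the coactivator that drives mitochondrial biogenesis, and as a protein that binds insulin response sequences.

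The sequences under some of the highest summits show what the signal sat on there. Each is a window of 200 bp centred on the summit region, read from GRCm38.p6, the mm10 build, in the direction of the assigned gene. Capitals mark copies of the GC box (GGGCGG) and the CCAAT box (CCAAT) on either strand, promoter elements bound by Sp-type factors and by the factor NF-Y. The windows belong to Gfra2, a receptor for the neurotrophic factor neurturin (chr14:70889882-70890081, plus strand), Klf7, a Kruppel-like zinc-finger factor (chr1:64121633-64121832, minus strand), Bhlhe40, a repressor of the circadian clock (chr6:108660405-108660604, plus strand), and Tsc22d1, a leucine-zipper protein (chr14:76414240-76414439, plus strand).
Gfra2: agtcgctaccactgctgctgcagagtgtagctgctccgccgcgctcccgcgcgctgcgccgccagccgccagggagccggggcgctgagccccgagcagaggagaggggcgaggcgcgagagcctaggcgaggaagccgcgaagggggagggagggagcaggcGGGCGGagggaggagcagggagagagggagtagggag
Klf7: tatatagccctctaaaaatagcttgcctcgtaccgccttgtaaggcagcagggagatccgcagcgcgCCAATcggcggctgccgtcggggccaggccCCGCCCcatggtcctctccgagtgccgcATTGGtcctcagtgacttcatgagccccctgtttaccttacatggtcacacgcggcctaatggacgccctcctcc
Bhlhe40: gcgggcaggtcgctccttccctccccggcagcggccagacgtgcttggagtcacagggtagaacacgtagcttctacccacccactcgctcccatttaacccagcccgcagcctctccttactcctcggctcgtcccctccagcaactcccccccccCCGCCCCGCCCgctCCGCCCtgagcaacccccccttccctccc
Tsc22d1: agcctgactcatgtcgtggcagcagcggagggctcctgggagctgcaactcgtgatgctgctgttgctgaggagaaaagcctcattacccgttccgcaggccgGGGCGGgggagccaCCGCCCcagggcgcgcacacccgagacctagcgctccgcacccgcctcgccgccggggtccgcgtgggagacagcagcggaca

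All 4 windows were rich in G and C and held at least 1 GC box. GC content was 74% at Gfra2, 61.5% at Klf7, 69.5% at Bhlhe40 and 70% at Tsc22d1, against a mean of 55.8% over all upstream promoter peaks. Bhlhe40 had 3 GC boxes, Tsc22d1 had 2, and Klf7 had 1 GC box and 2 CCAAT boxes. A match is a stretch of letters, not a shown binding site.

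The highest upstream promoter peak reached a maximum signal of 1450, in the authors' signal units, and belonged to Gfra2. It covered 1659 bp (chr14:70889012-70890670) and its summit region lay 138 bp upstream of the TSS. Klf7 reached 1263 over 2699 bp (chr1:64119676-64122374). Dazap2, a proline-rich protein, reached 1149 at a summit 18 bp from its TSS. Bhlhe40 reached 1046 and had the highest total signal of the group, 853180, over 2828 bp (chr6:108658911-108661738). The next 6 by maximum signal were Tsc22d1 at 992, the corepressor scaffold Sin3a at 983, the mitochondrial carrier Slc25a42 at 976, the postsynaptic scaffold Dlg4 at 887, the RING-finger gene Rnf44 at 836 and the chromatin reader Hdgfl2 at 828. All 10 peaks extended over their TSS. The summit regions of Klf7, Sin3a and Dlg4 lay inside the body of their own gene, at a start other than the outermost. Total signal added Mir124a-1, a gene for a neuronal microRNA, at 672176, and Spaca6 at 644759 to Bhlhe40, Dlg4 at 750412 and Sin3a at 627590.

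The widest upstream promoter peaks were blocks of several kilobases. The peak of Pou2f2, an octamer-binding factor, covered 4738 bp (chr7:25177081-25181818). Mir124a-1 had 4465 bp, the histone methyltransferase gene Kmt2a 4161 bp, the activity-induced factor Egr3 4099 bp and Sult2b1 3572 bp. The peak assigned to Sult2b1 (chr7:45784427-45787998) also covered the start of Lmtk3, a kinase gene on the opposite strand 711 bp away. The Sult2b1 start is at position 45784669 and the Lmtk3 start at 45785380, so most of the peak lay beyond the Lmtk3 start. Most peaks were far narrower, with a median width of 482 bp (470 to 495).

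The signal of a typical member was modest. Maximum signal had a median of 121 (119 to 123), with quartiles of 82 and 188 and a range of 6 to 1450. Downstream promoter peaks had a median of 116 (114 to 118), peaks on the TSS 108 (106 to 110), shoulder peaks 98 (97 to 101) and all annotated peaks 101. The upper end differed more than the middle. Among the highest 10% of all annotated peaks by maximum signal were 1549 of the upstream promoter peaks, 24.98%, and 19.7% of the downstream ones, a difference of 5.32 percentage points (3.84 to 6.79). The share was 16.6% for peaks on the TSS and 9.45% for the shoulder.

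Many peaks were rectangles, with the same signal at nearly every base. A peak was called constant in height where its total signal was at least 99% of maximum signal times width. Of the upstream promoter peaks, 41.3% (40.1 to 42.5) were of this kind, against 45.4% downstream, 49.2% on the TSS, 62.8% in the shoulder and 63.3% of all annotated peaks. The constant ones were narrow, with a median width of 233 bp and a maximum of 700 bp. Without them the median maximum signal of the 3641 remaining members was 168 (163 to 172), and the order of the groups stayed the same, with 156 (152 to 160) downstream, 151 on the TSS and 131 in the shoulder. The group on the TSS is defined by a summit region that covers the TSS, which favours wide summit regions. Their median width was 232 bp on the TSS and 109 bp upstream, and 145 and 61 bp without constant-height peaks. How much this selection bears on the difference in height was not tested.

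**Figure D1:**
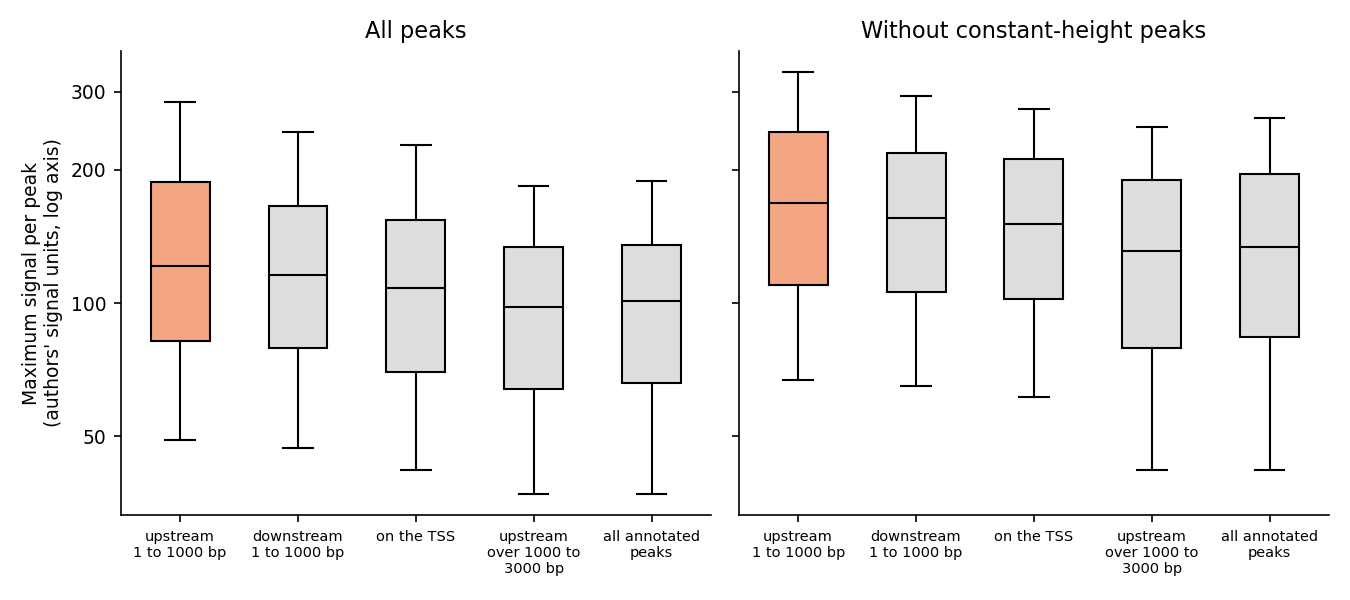
Maximum signal per peak (authors' signal units, log axis) by position of the summit region, for all peaks and without constant-height peaks. Boxes span the quartiles with the median as a line, and whiskers the 10th to the 90th percentile over peaks of 1 library. The median of the upstream promoter peaks was the highest of the groups in both panels, at 121 and 168. The definition of the group on the TSS favours wide summit regions.

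The members crowded toward the TSS. The first 100 bp upstream held 1836 of them, 29.6% of all, and the next 100 bp held 1041. The count then fell to 677 at 201 to 300 bp and to 273 at 901 to 1000 bp. Where starts lie close together, assignment to a nearby start leaves fewer bases open at longer distances. The bases open at each distance were not counted, so part of this fall may come from the assignment. Within 300 bp lay 57.3% (56.1 to 58.5) of the upstream promoter peaks and 46.5% of the downstream ones, a difference of 10.8 percentage points (9.08 to 12.6). Members whose signal varied within the peak were closer than constant ones, with 66.2% and 44.7% within 300 bp.

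Upstream and downstream counts changed places with distance. Over the whole kilobase there were 1.02 upstream peaks per downstream peak (0.987 to 1.06), an interval that includes equal numbers. In the first 100 bp the ratio was 1.40, with a lower bound of 1.30, and at 101 to 200 bp it was 1.28 (1.17 to 1.41). From 401 to 800 bp each 100 bp bin had more downstream peaks, with ratios between 0.74 and 0.85, and at 901 to 1000 bp the ratio was 0.68 (0.58 to 0.79). Without constant-height peaks the ratio over the kilobase was 1.10 (1.05 to 1.15), and for constant-height peaks alone it was 0.93 (0.88 to 0.98). The direction of the overall ratio therefore depended on peak shape.

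**Figure D2:**
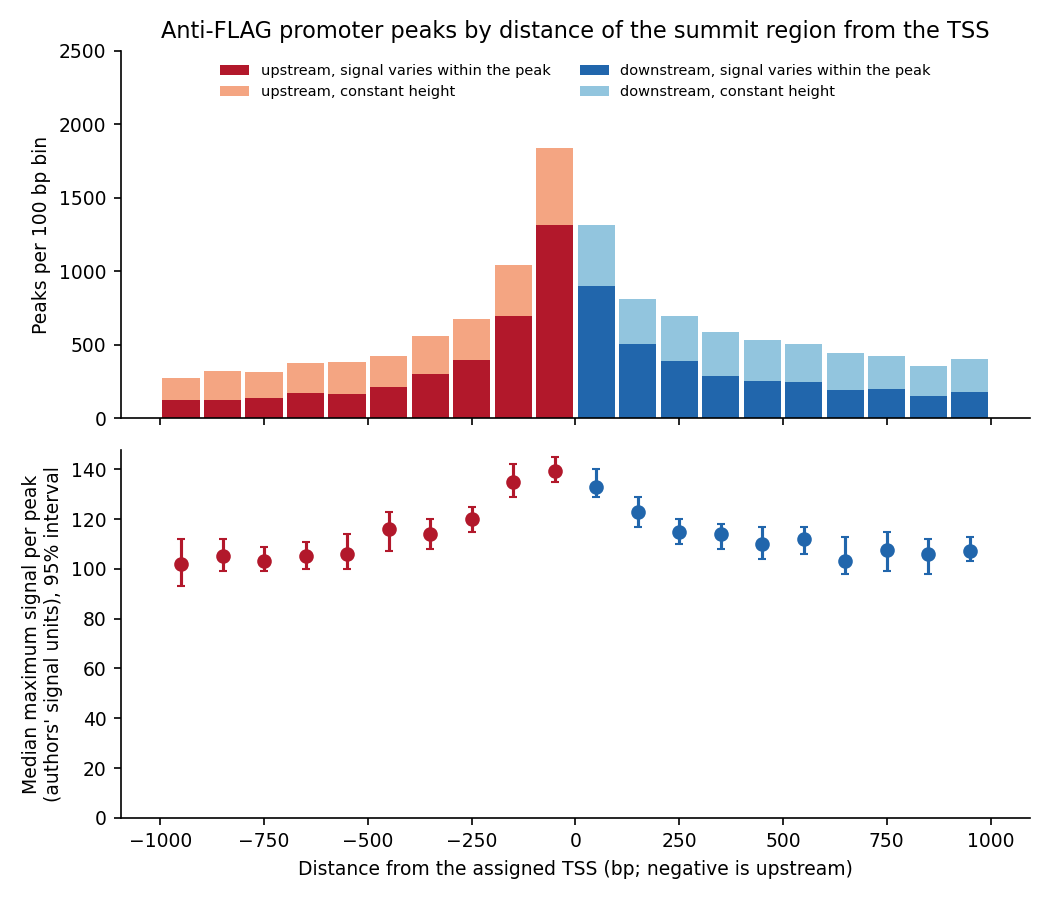
Peaks per 100 bp bin by distance of the summit region from the assigned TSS (top, counts split by peak shape) and median maximum signal per bin with 95% intervals (bottom, authors' signal units). Counts were highest in the bin next to the TSS, at 1836 upstream and 1313 downstream, and fell less steeply on the downstream side.

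Over all shapes together, signal followed the same slope. The median maximum signal was 139.5 (135 to 145) within 100 bp, 120 (115 to 125) at 201 to 300 bp and 102 (93 to 112) at 901 to 1000 bp. Among peaks that were not constant, it was 176.5 within 100 bp, 178 at 201 to 300 bp and 140 at 901 to 1000 bp. For these it did not fall over the first 300 bp. At the edges of the rule, the 273 members of the outermost 100 bp had a median of 102 and the 303 peaks in the 100 bp just outside had 99. The 237 members within 10 bp of the TSS had a median of 140, and the 3021 peaks just outside this edge, on the TSS, had 108. These groups also differed in shape, with 27.4% and 49.2% of constant height.

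A summit upstream did not mean a peak confined to the upstream side. The whole peak extended over the assigned TSS for 35.1% (33.9 to 36.3) of members. It did so for 59.5% of the members whose signal varied and for 8 of the 2559 constant ones, or 0.313%. In constant-height members the summit region was nearly the whole peak, with median widths of 231 and 233 bp. A peak of this kind that covers the TSS mostly falls in the group on the TSS. The rule itself therefore keeps this share, and with it the pooled 35.1%, low. Downstream peaks reached back over the TSS in 29.1%, which is 5.94 percentage points (4.29 to 7.59) less. This pooled difference is not at equal distance, since more of the upstream peaks lay near the TSS. Within 100 bp the shares were 63.7% upstream and 63.4% downstream. At 101 to 200 bp they were 47.0% and 46.1%, at 201 to 300 bp 33.5% and 34.0%, and at 401 to 500 bp 15.8% and 12.6%. Height and reach went together. Of the 620 members with the lowest maximum signal 12.7% extended over the TSS, and of the 620 with the highest 84.5% did (81.5 to 87.2). Constant-height peaks, which the rule keeps from covering the TSS, were 65.6% of the lowest set and 0% of the highest. Part of the rise is thus built into the rule, and how much was not tested. Median width did not follow height throughout. In 10 sets ordered by height it was 519 bp in the lowest, fell to 275 bp in the sixth and was 1027.5 bp in the highest.

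Nearly all members were assigned to protein-coding genes, 5836 or 94.1%. The others included 110 at lincRNA genes, 80 at microRNA genes and 73 at antisense genes. The assigned start was the outermost start of its gene for 55.7% of the members with a transcript in GENCODE M21. For 43.7% (42.4 to 44.9) the middle of the summit region lay inside the body of the assigned gene, upstream of an internal start. Among protein-coding assignments these internal members had a median maximum signal of 116 (114 to 119), against 126 (122 to 129) outside the gene body, and 45.7% against 37.0% were constant in height.

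In gene terms, 4791 of 21938 protein-coding genes, or 21.8%, had at least 1 upstream promoter peak, and 3111, or 14.2%, had 1 that was not constant in height. Of the 4791 genes, 1654 also had a downstream promoter peak, which is 34.5% of them and 35.0% of the 4730 genes with a downstream peak. Over all protein-coding genes the share with a downstream promoter peak was 21.6%. Of the same 4791 genes 14.7% had a peak on the TSS, for which the share over all genes is not given here, and 56.9% had neither. The share of genes with a member rose with the number of annotated starts, each of which opens a further window for a member. It was 8.42% for genes with 1 start, 15.2% with 2 to 3, 27.4% with 4 to 6 and 39.7% with 7 or more.

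Some genes had several members. At 851 genes, 17.8% of those with a member, there were 2 or more. The most, 7 each, were at Iqsec1, a synaptic exchange factor for ARF GTPases, Rbfox3, which encodes the neuronal splicing factor NeuN, the kinase gene Tnk2 and the cytolinker gene Plec. Mical3, a regulator of actin, had 6. The 7 peaks of Rbfox3 lay upstream of 7 different starts and had maximum signals between 69 and 219. Those of Iqsec1 lay upstream of 5 starts, and 1 of them stood out at 778 while the other 6 lay between 86 and 176. Peaks at 1 gene share their library and, in part, their start, and are not repeats of a measurement.

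The X chromosome held few members. Of 948 protein-coding genes on X 13.7% had an upstream promoter peak, while the chromosomes 1 to 19 ranged from 17.1% to 26.7%. X had 2.47% of the upstream promoter peaks and 2.36% of the downstream ones, against 4.32% of protein-coding genes. On Y 0 of 183 genes had a member, which by counting alone allows a share of up to 1.64%. The sex of the mice is not stated here, and how well reads can be placed on Y was not examined. No conclusion is therefore drawn from the 0. The shares by chromosome were not weighted by the number of annotated starts.

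The gene lists below were chosen with earlier results of these data known, so their counts are descriptions. Because the number of annotated starts differed between lists, each count is given with the share of all protein-coding genes weighted to the list's own mix of starts. Over all protein-coding genes the share was 21.8%, and the median of each gene's highest member was 131.

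Genes of the synapse had the largest shares of the lists examined when peaks of all shapes were counted. With only peaks not constant in height, the shares were 48.5% for synaptic vesicle and release genes and 48.6% for postsynaptic genes. Core circadian clock genes then had 50%. Of 33 synaptic vesicle and release genes 23 had an upstream promoter peak, 69.7% (52.7 to 82.6), against 26.3% at their mix of starts, and 16 had 1 that was not constant in height. Their median maximum signal was 156. The highest were Rab3a, a GTPase of synaptic vesicles, at 397 with the summit 43 bp from the TSS, the NSF attachment gene Napb at 338, the calcium sensor Syt1 at 289 and Napa at 259. Of 35 postsynaptic genes 23 had a member, 65.7% (49.2 to 79.2), against 31.1% at their mix of starts. In 17 of them 1 was not constant in height, and the median was 138. Dlg4, which encodes PSD-95, led at 887, and others were the NMDA receptor subunit Grin2b at 442 and Nlgn2, an adhesion protein of inhibitory synapses, at 421.

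Regulators of transcription and chromatin formed the next set. Of 20 core circadian clock genes 10 had a member, 50% (29.9 to 70.1) against 25.6% at their mix of starts, and none of the 10 was constant in height. Their median was 260.5, against 131 over all genes. Bhlhe40 led at 1046, then Ciart, a clock repressor, at 521, the cryptochrome Cry2 at 438 and the nuclear receptor Rora at 310. Of 44 genes for chromatin remodelling ATPases and histone enzymes 21 had a member, 47.7% (33.8 to 62.1) against 34.4%, so the weighted share lay inside the interval. Smarca2 reached 783, and the methyltransferase genes Kmt2c and Kmt2d reached 578 and 468, with the remodelling ATPase gene Srcap at 445. Among immediate early genes, which are switched on by neuronal activity, 10 of 22 had a member, 45.5% (26.9 to 65.3) against 18.9%. Fosl2 stood at 518, Dusp1 at 499, Egr3 at 356 and the neurotrophin gene Bdnf at 328, and 4 of the 10 were constant in height.

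Kruppel-like and Sp factors differed in height rather than number. Only 5 of 25 had a member, 20% against 17.5% at their mix of starts, but the median of those 5 was 455. Klf7 stood at 1263, Klf13 at 594, Klf10 at 455 and Sp2 at 272. With 5 genes such a median rests on few peaks.

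Among 12 genes linked to PARIS or to the genotype's name 5 had an upstream promoter peak, 41.7% (19.3 to 68.0) against 26.3% at their mix of starts. Camk2a, a kinase abundant in excitatory neurons, had 3 members, the highest at 300 (chr18:60924270-60925984) with the summit 720 bp upstream. Zfp746 itself had 1 at 141, constant in height and 863 bp upstream (chr6:48083140-48083407). Since the labels do not describe the construct, endogenous and construct DNA cannot be told apart in the values of Camk2a and Zfp746. The mitochondrial transcription factor gene Tfam had 96, Nrf1, a regulator of mitochondrial genes, had 90, and the mitochondrial kinase gene Pink1 had a constant-height peak of 32. Ppargc1a, Pck1, G6pc, Igfbp1, Mdm4 and Tkt had none in this window. Apart from Camk2a and Zfp746, these values were below the median of 131 over all genes with a member.

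Housekeeping sets lay near their background. Nuclear-encoded respiratory chain genes had a member in 23 of 85, 27.1% (18.8 to 37.3) against 23.4% at their mix of starts, with Ndufb5 at 458, Sdhb at 274, Uqcrc1 at 263 and Ndufb2 at 260. Cytosolic ribosomal protein genes had 21 of 83, 25.3% against 28.0%, led by Rpl41 at 352, and near-identical pseudogene copies make read placement at this family uncertain. Proteasome subunit genes had 9 of 39, 23.1% against 27.2%, led by Psmd3 at 374. Mitochondrial ribosomal protein genes had 12 of 78, 15.4% against 22.8%, and their median of 94.5 was below that of all genes. The Zfp genes, the largest list of zinc-finger factors, had 88 of 394, 22.3% against 21.8%, led by Zfp94 at 463 and Zfp61 at 441.

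Lists for other cell types of the hippocampus were short. Of 20 factors of hippocampal excitatory neurons 7 had a member, 35% against 24.8% at their mix of starts, with Etv1 at 262, Neurod2 at 176, Mef2c at 158 and Meis2 at 154. Of 9 interneuron markers 3 had a member, 33.3% against 19.7%. Pvalb at 156, Vip at 132 and Gad1 at 118 all had constant-height peaks, while Gad2, Slc32a1, Sst, Npy, Cck and Lhx6 had none. Of 8 astrocyte markers Aldh1l1 at 156 and Slc1a2 at 54 had a member, both constant, 25% against 29.6%, and Gfap, Aqp4, Slc1a3, Gja1, Aldoc and Sox9 did not. Of 9 oligodendrocyte markers Mbp had a constant peak of 9, 11.1% against 24.6%, and Mog, Mag, Olig1, Olig2, Sox10, Cnp and Mobp had none. Of 8 microglia markers Trem2 at 139, Aif1 at 93 and P2ry12 at 18 had a member, 37.5% against 22.8%, and Cx3cr1, Tmem119, Csf1r and Itgam did not. Olfactory receptor genes, which are mostly silent outside the nose, had 5 of 1092, 0.458% against 15.4%, led by Olfr457 at 156, Olfr1446 at 140, Olfr460 at 121 and Olfr464 at 76. Peaks in bulk tissue carry no cell of origin.

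**Figure D3:**
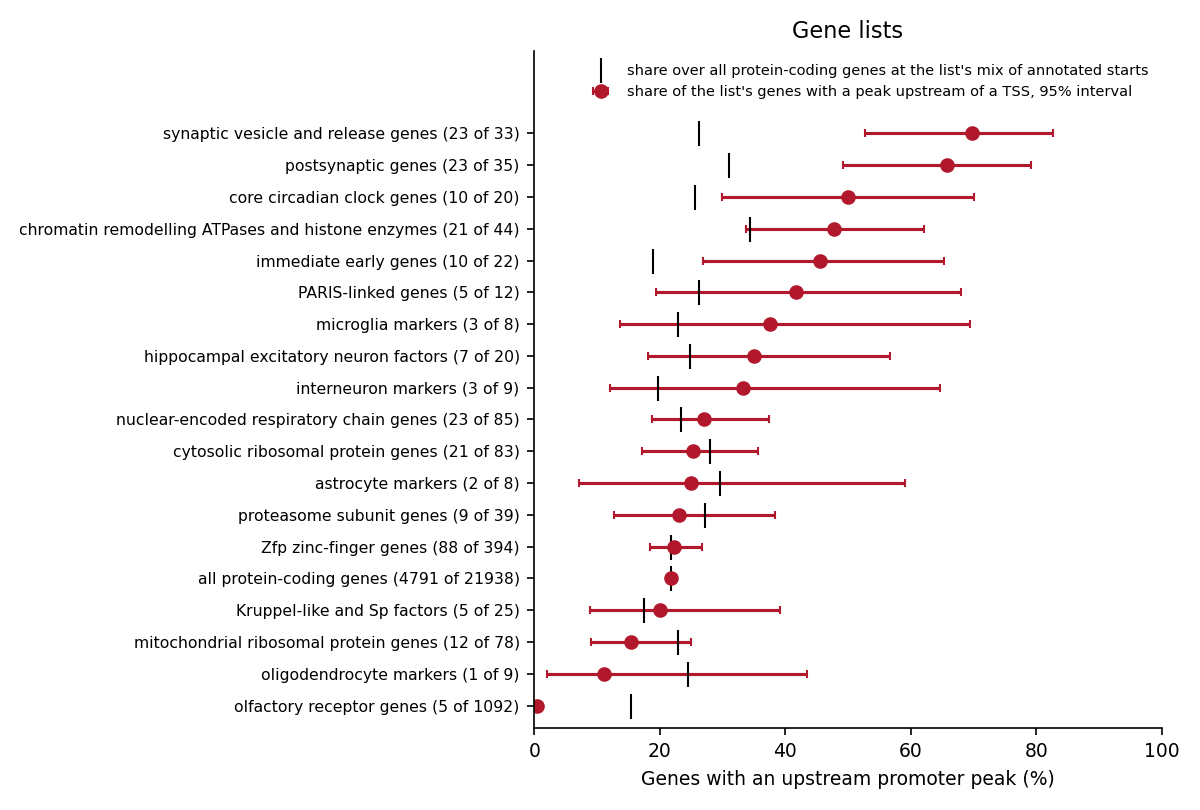
Share of the genes of each list with an upstream promoter peak (points, Wilson 95% intervals) and the share over all protein-coding genes weighted to the list's mix of annotated starts (ticks). Synaptic vesicle and postsynaptic genes lay at 69.7% and 65.7%, with intervals above their ticks, and olfactory receptor genes at 0.458%.

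Some promoters serve 2 genes that point away from each other. In such head-to-head pairs the space upstream of 1 start is also upstream of the other. A start of any other gene on the opposite strand lay within 1000 bp upstream of the assigned TSS for 7.61% (6.98 to 8.30) of the members, against 14.1% of all protein-coding gene starts. With both genes protein-coding it was 145 of 5836 members, 2.48%, against 8.68% of all protein-coding starts, 6.25% of downstream promoter peaks and 9.12% of peaks on the TSS. The shares of all protein-coding starts use only the outermost start of each gene. Members were often assigned to an internal start, so these shares are not like for like. By gene, 13.5% of those head-to-head with a protein-coding start had a member, against 22.6% of other protein-coding genes. Assignment of a peak to a nearby start limits the space open to members in a short gap, and 141 of the 145 summit middles lay between the starts.

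The members in those pairs were high. Their median maximum signal was 182 (161 to 208), against 120 (118 to 122) for protein-coding members without such a partner, and their median distance, which the gap limits, was 43 bp against 237 bp. Constant height was found in 9.66% and 41.7%. The highest were Nbr1, an autophagy receptor, paired with the DNA repair gene Brca1, at 717, Cbx3, which encodes HP1 gamma, paired with Hnrnpa2b1, at 681, Emc8 paired with the respiratory chain gene Cox4i1 at 559, Npat, a coactivator of histone genes, paired with the DNA damage kinase gene Atm, at 527, and Katnip paired with Gtf3c1 at 486. The gaps between the starts were 979, 466, 101, 307 and 108 bp in that order. Below are the windows of Cbx3 (chr6:51470044-51470243, plus strand) and Npat (chr9:53536803-53537002, plus strand), shown because each lies in the gap of a pair, with GC and CCAAT boxes in capitals. Cbx3 had neither, and Npat had 1 of each.
Cbx3: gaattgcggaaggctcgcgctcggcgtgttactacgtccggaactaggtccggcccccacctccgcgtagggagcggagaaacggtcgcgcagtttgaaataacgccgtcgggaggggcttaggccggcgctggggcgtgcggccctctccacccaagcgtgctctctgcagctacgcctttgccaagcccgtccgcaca
Npat: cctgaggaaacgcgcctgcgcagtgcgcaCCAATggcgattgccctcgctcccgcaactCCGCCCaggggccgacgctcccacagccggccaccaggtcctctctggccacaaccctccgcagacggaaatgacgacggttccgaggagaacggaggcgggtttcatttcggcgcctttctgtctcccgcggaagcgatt

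The members were richer in G and C than the DNA further upstream. The 200 bp windows at their summits had a mean GC content of 55.8% ± 10.6 (SD over 6198 windows), against 46.8% in windows 1000 bp further upstream, 56.9% at downstream promoter peaks and 61.9% at peaks on the TSS. Windows at the starts of protein-coding genes without a peak within 1 kb had 47.0%. Members with varying signal had 59.4% and constant-height members 50.8%. A window was called CpG-rich with a GC content above 50% and an observed to expected CpG ratio above 0.6. This held for 31.3% of upstream promoter peaks, 31.3% of downstream ones, 57.7% of peaks on the TSS and 4.82% of windows 1000 bp further upstream. Within 300 bp of the TSS it was 46.1% and beyond that 11.6%.

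The mean GC profile was not symmetric. Around the middle of the summit region the mean GC content was 56.0%, and it kept rising in the direction of transcription to 58.8% at 325 bp. About 1.5 kb upstream it was 46.5%. Downstream promoter peaks were the mirror image, with their highest value, 58.2%, 205 bp toward the TSS. The side of the highest value follows from choosing peaks on 1 side of a start, since gene starts are rich in G and C.

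**Figure D4:**
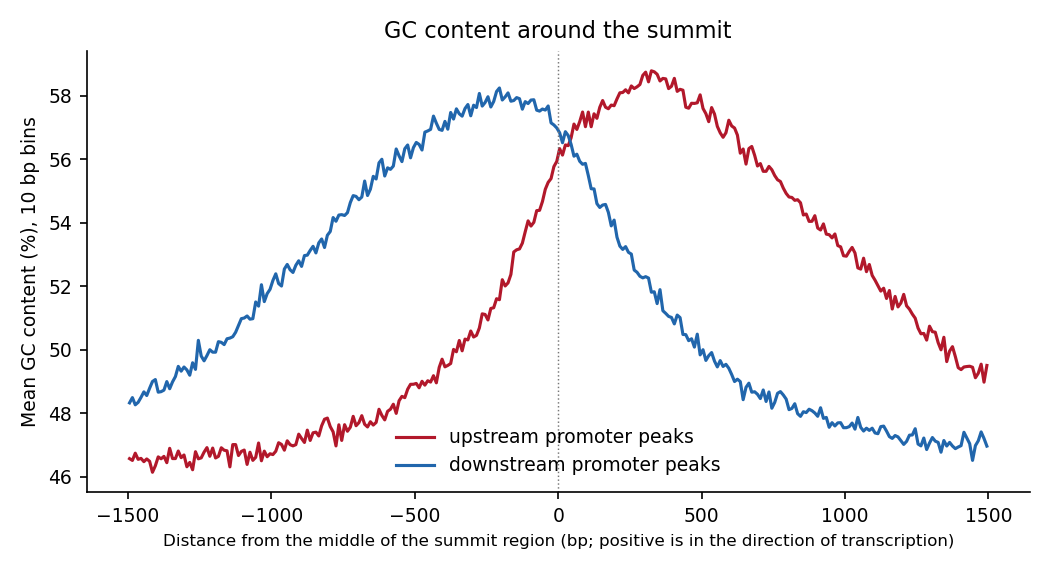
Mean GC content (%) in 10 bp bins around the middle of the summit region, in the direction of transcription, for upstream and downstream promoter peaks. GC content was highest 325 bp downstream of upstream summits (58.8%) and 205 bp upstream of downstream summits (58.2%).

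Composition and proximity both changed with height. From the 620 lowest to the 620 highest members GC content rose from 51.4% to 62.5%, the observed to expected CpG ratio from 0.35 to 0.65, and the median distance to the TSS fell from 341.5 to 140.5 bp. Constant-height peaks made up 65.6% of the lowest set and 0% of the highest, where 0 of 620 allows a share of up to 0.484%.

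The insulin response sequence was searched as TATTTTT and TATTTTG on both strands. It was in 6.02% (5.45 to 6.64) of the windows of upstream promoter peaks and in 5.89% of the downstream ones, a difference of 0.13 percentage points (-0.71 to 0.96). Windows 1000 bp further upstream held it in 12.8%, all protein-coding gene starts in 11.3% and starts without a peak in 13.0%. The motif is made mostly of A and T, so windows were also compared at like GC content. Between 40 and 50% GC it was in 12.7% (11.1 to 14.5) of the member windows and 11.9% of the windows at starts without a peak. Between 50 and 60% GC the shares were 3.37% and 3.27%, and between 60 and 70% they were 1.11% and 1.19%. With the starts without a peak weighted to the GC mix of the members, their share was 5.49%, within the interval of the members.

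Height did not bring more of these motifs. They were in 7.90% of the 620 lowest members and 3.55% of the 620 highest, in which GC content was higher. The 6 protein-coding genes with the motif and the highest signal were Klf7 at 1263, Nbr1 at 717, the Ras activator Rasgrp2 at 555, the ubiquitin ligase adaptor Kbtbd8 at 540, the folate enzyme Fpgs at 464 and the growth factor Tgfb3 at 432. The windows of Klf7 and Fpgs (chr2:32694270-32694469, minus strand) follow with the motif in capitals, to show its place relative to the summit at the centre. In both it lay near the window's upstream end.
Klf7: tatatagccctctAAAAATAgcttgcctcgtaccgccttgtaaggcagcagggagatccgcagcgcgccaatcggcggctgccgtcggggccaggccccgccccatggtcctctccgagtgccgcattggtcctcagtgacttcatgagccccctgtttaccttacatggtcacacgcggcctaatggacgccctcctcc
Fpgs: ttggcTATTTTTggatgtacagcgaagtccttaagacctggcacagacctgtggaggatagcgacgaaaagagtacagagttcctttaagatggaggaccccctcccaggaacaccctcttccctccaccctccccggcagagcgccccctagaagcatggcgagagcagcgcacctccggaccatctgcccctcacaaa

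General promoter motifs set upstream and downstream peaks apart. The GC box was in 28.7% (27.6 to 29.9) of the upstream windows, 24.2% of the downstream ones and 17.6% of the windows at all protein-coding gene starts. At the members' GC mix, starts without a peak held it in 28.3%. The CCAAT box was in 24.8% of upstream windows and 17.6% of downstream ones, a difference of 7.19 percentage points (5.74 to 8.63), and in 26.6% at all gene starts. Members thus carried more CCAAT boxes than peaks on the other side of the TSS, but no more than these gene-start windows. Those windows lie upstream of the outermost start of each gene, while many members were at an internal start. For this and the other motifs the comparison is therefore not like for like. Windows downstream of starts without a peak were not compared, so a general difference between the sides of a start was not tested. The TATA box (TATAAA) was in 5.84%, against 11.3% of all gene starts and 6.46% of starts without a peak at the members' GC mix.

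Rarer motifs showed smaller differences. The E-box CACGTG, read by clock and Myc-type factors, was in 5.13% of upstream windows, 3.81% of downstream ones and 3.69% at all gene starts, and starts without a peak at the members' GC mix had 4.68%. The ETS motif (CCGGAAG) was in 3.78%, 3.04% and 3.47%, and at the members' GC mix starts without a peak had 5.35%. The cyclic AMP response element (TGACGTCA), bound by CREB, was in 0.952% of upstream windows and 0.396% of downstream ones, a difference of 0.556 percentage points (0.268 to 0.859), with 0.688% at all gene starts and 1.02% at starts without a peak at the members' GC mix. The NRF1 motif (GCGCATGCG) was in 0.774% of upstream and 0.396% of downstream windows, and the CTCF core (CAGGGGGCG) in 1.19% and 0.693%. At the members' GC mix, starts without a peak held them in 1.10% and 1.19%, no less than the members. For YY1 (AAGATGGCG) and NRSF (TTCAGCACC) the intervals of the difference included 0.

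The AP-1 motif (TGAGTCA), bound by Fos and Jun dimers, was more frequent in the peaks farther upstream of the TSS. It was in 4.70% of the member windows, against 4.04% of the downstream ones (difference 0.65 percentage points, -0.07 to 1.38), 2.82% of starts without a peak at the same GC mix and 3.53% of windows 1000 bp further upstream. Within 300 bp it was in 3.63% of members and beyond 300 bp in 6.13%. Shoulder peaks held it in 6.57%.

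**Figure D5:**
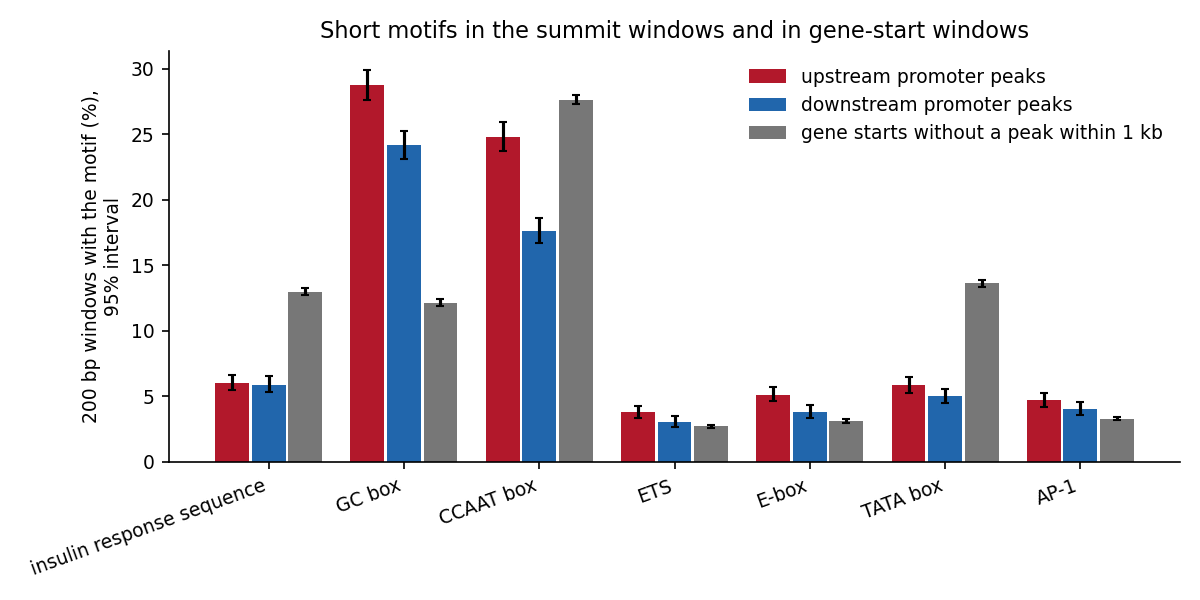
Share of 200 bp windows (%) that hold each motif on either strand, with Wilson 95% intervals, at upstream promoter peaks, downstream promoter peaks and the starts of protein-coding genes without a peak within 1 kb. The CCAAT box was in 24.8% of upstream and 17.6% of downstream windows, and the insulin response sequence in 6.02% and 5.89%.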

How the data were processed

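Per the labels, the anti-FLAG and IgG reads were trimmed, mapped to mm10 (Bowtie2), filtered for quality and duplicates, and peaks were called by SEACR with IgG as control. Versions, SEACR settings and the annotation tool are not given in the sources used here. The deposited peak list gives total and maximum signal per peak in whole numbers, with unstated scaling and unknown read depth. IgG enters only through that peak calling.

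Members were chosen by the deposited class and distance. Distances equalled those from the summit region's near edge to the assigned start in 100% of peaks. Of the members' transcripts 99.1% were in GENCODE M21, all with the same start. Where the transcript's gene differed from the authors' gene ID (35 of 6102), the transcript's gene was used. Sequences were read from GRCm38.p6 with pysam 0.24.0. Windows at protein-coding gene starts were centred 70, 173, 325, 549 and 905 bp upstream of each gene's outermost start. These are the 10th, 30th, 50th, 70th and 90th percentiles of the members' summit middles. GC weighting averaged shares in 5% GC bands by the members' counts. No motif's letters contained another's. Intervals (Wilson for shares, order-statistic for medians, Newcombe for differences, scipy 1.17.1) were checked on simulated data.

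Genes named are the 10 highest by maximum and 5 by total signal, the 5 widest, up to 4 per list (all of lists of at most 12), 5 head-to-head pairs, 6 with an insulin response sequence and 5 with most members. Windows on chromosome 18 or touching an untranslated region are not printed. A few genes of the lists are counted in them but not reported here by name. Members and lists were chosen with earlier results of these data known.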

Additional observations from a re-analysis of the deposited data

How the results depend on the processing

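With 1 anti-FLAG library there is no replicate to leave out, no spread between libraries and no test, and with the depth unknown a low signal cannot be given a counting error. No paired analysis was possible because each antibody has 1 library. Of 53 values under other settings, 42 left the interval around the reported value (for the number of peaks, a factor of 1.5) and 11 did not. Since the intervals cover counting over many peaks, small shifts leave them.

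With maximum signal above the median of the whole list, there were 3903 upstream promoter peaks, 26.7% of constant height, 62.3% within 300 bp, 47.0% extending over the TSS and 8.79% head-to-head. GC content was 57.8%, the insulin response sequence was in 5.07%, 14.8% of protein-coding genes had a member and there were 1.07 upstream per downstream peak. Without constant-height peaks the values were 3641 peaks, a median maximum of 168, 66.2% within 300 bp, 59.5% over the TSS, 9.91% head-to-head, 59.4% GC, 4.12% with the insulin response sequence, 14.2% of genes and a ratio of 1.10. For peaks at least 200 bp wide they were a median of 128, 29.7% constant, 59.4% within 300 bp, 43.1% over the TSS, 56.3% GC and 18.2% of genes. With a distance limit of 500 bp they were a median of 129, 35.6% constant, 46.0% over the TSS, 9.28% head-to-head, 57.8% GC, 4.98% with the insulin response sequence, 17.3% of genes and a ratio of 1.15. With 1 peak per gene they were a median of 130, 37.4% constant, 60.2% within 300 bp, 38.9% over the TSS and 56.3% GC. Windows of 400 bp had 55.5% GC and held the insulin response sequence in 12.002%, as they hold more bases. A head-to-head limit of 500 bp gave 5.92%.

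Distance from the middle of the summit region to the nearest GENCODE start gave 8520 upstream promoter peaks, in which 6.35% were head-to-head, and 25.1% of protein-coding genes had one. Of these 8520 peaks 5721 were members by the authors' distance, 92.3% of the authors' members and 67.1% of the larger set.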

Other observations

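MicroRNA genes are a small group of upstream promoter peaks that the account by protein-coding genes leaves out. Their annotated start is the start of the precursor hairpin, not of the primary transcript, so a distance here is a distance to the hairpin. By the gene of the assigned transcript there were 80 such members at 78 microRNA genes (1 carries the symbol Sox1 in the authors' table), 35 of them not constant in height, with a median maximum signal of 118 (103 to 138). The 5 genes with the highest signal, chosen after their values were seen, were Mir1191b at 675 (chr10:81415961-81418288, 680 bp upstream at the summit), Mir212 at 633 (chr11:75172024-75175153), Mir484 at 499 (chr16:14159039-14160180), Mir124a-1 at 447 (chr14:64586832-64591296) and Mir194-2 at 368 (chr19:6264192-6264403). The mature sequences of the 4 genes matched by symbol in RefSeq's GRCm38.p6 table are given with the seed, bases 2 to 8, in capitals, since the seed sets which transcripts a microRNA pairs with. No seed occurred in more than 1 of them.
mmu-miR-1191b-5p: uCAGGCUAcagagcgagaaccu
mmu-miR-1191b-3p: aGACUCACuauguagcccaagc
mmu-miR-212-5p: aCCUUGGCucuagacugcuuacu
mmu-miR-212-3p: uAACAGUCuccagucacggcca
mmu-miR-484: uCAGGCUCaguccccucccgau
mmu-miR-194-5p: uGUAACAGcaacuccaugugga
mmu-miR-194-2-3p: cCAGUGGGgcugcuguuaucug

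The peak of Mir212, a microRNA gene induced by CREB in neurons, was 3130 bp wide and extended over the hairpin. The peak of Mir124a-1, the 2nd widest of all upstream promoter peaks at 4465 bp, extended over its annotated start. That of Mir194-2 was 212 bp wide and ended upstream of its mature sequences, which start at position 6264658. These are values of 1 library, and which transcript a peak belongs to was not tested.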
